A study of Homo sapiens with 9 samples.

Results

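The 42 genes described here are those of sugar breakdown and of the cellular answer to low oxygen: glucose transporters, glycolytic enzymes, subunits and sensors of the hypoxia-inducible factors (HIF), and well-known HIF target genes. They were measured in HCCC-9810, a human cholangiocarcinoma (bile duct cancer) cell line, on Affymetrix expression arrays. Members were the probe sets (groups of probes read together for a transcript) whose single gene symbol, current or older, is a listed member. That gave 135 of the 49395 probe sets on the arrays, for 39 of the 42 genes. CA9 and SLC16A3 were not analysed here, and SLC2A3 was represented by 5 probe sets shared with SLC2A14, so none of these 3 has a value. Of the 39 genes, 38 had a probe set above the intensity filter (a mean of 25.5 over all arrays), with 113 probe sets between them. A further 3 member probe sets are GAPDH array controls and were not tested. EGLN3, an oxygen-sensing prolyl hydroxylase, did not pass the filter, with readings between 7.8 and 15.0.

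The cells had been transfected with siRNAs against BAP1 (si-BAP1), siRNAs against MBD5 (si-MBD5) or a control (si-Control), with 3 biological replicates per group according to the series' design, 9 arrays in all. Sample titles name the control si-Control, whereas the design text speaks of a control shRNA. The number of siRNA sequences per target, their dose and the time after transfection are not given in the sources used here. All arrays are of 1 cell line, and each group has 3 arrays, so the p-values measure the spread between replicates of that line only. BAP1 is a nuclear deubiquitinase that acts on chromatin, and MBD5 is a protein of the methyl-CpG-binding domain family.

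Array medians were between 36.9 and 38.2 intensity units, and correlations over all probe sets were 0.998 to 0.999 within groups and 0.996 to 0.998 between groups. The brighter MBD5 probe set read 6.17 ± 0.056 in si-MBD5 cells, 7.75 ± 0.844 in si-BAP1 cells and 7.04 ± 0.133 in si-Control cells (SD, n = 3 each), below the filter in every group. Its si-MBD5 to si-Control difference had an exact two-sided permutation p of 0.1, the smallest that 3 against 3 arrays allow, and BAP1 itself was not analysed here, so neither knockdown is shown by these readings. Of 15 cholangiocyte markers on the arrays, 9 passed the filter, KRT7, KRT8 and KRT18 among them, while KRT19 and EPCAM did not. Their summed intensity was 5246 to 5353 in si-BAP1 cells, 4827 to 5119 in si-MBD5 cells and 5082 to 5471 in si-Control cells. Of these 9 markers, 1 rose (KRT8, 0.31) and 2 fell (CLDN4, -0.33, and KRT7, -0.15) in si-BAP1 cells, and 1 rose (ANXA4, 0.13) and 2 fell (SOX4, -0.30, and KRT7, -0.19) in si-MBD5 cells. For other cell types, 5 of 15 hepatocyte, 6 of 15 fibroblast and endothelial, and 5 of 13 immune markers passed the filter, TTR, COL1A1 and PECAM1 among them, while ALB and the pan-leukocyte PTPRC did not. Of these, ACTA2 fell in both knockdowns (-0.31 in si-BAP1 and -0.45 in si-MBD5 cells) and PDGFRB rose in both (0.16 and 0.24). The summed intensity of the hepatocyte, the fibroblast and endothelial and the immune list overlapped between the 3 groups; the part of these markers in the results below was not tested. The 3′ to 5′ signal ratio of ACTB, a measure of RNA integrity, was 10.8 to 11.4 in si-BAP1 cells, 11.6 to 13.0 in si-MBD5 cells and 11.8 to 12.8 in si-Control cells (exact permutation p = 0.1 for si-BAP1 against si-Control). That ratio moved with the si-BAP1 results given below, and its part in them was not tested; the same ratio of GAPDH was 1.07 to 1.09 in si-BAP1 cells, 1.07 in all 3 si-MBD5 arrays and 1.03 to 1.08 in si-Control cells.

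Glycolysis splits glucose into pyruvate in the cytosol, and lactate dehydrogenase turns pyruvate into lactate when it is not burned in mitochondria. With oxygen present, prolyl hydroxylases mark the HIF alpha subunits HIF1A and EPAS1 (HIF-2 alpha) for destruction; when oxygen is low, the subunits persist, bind DNA at short hypoxia response elements and raise transcription of transporters, glycolytic enzymes, angiogenic factors and pH regulators. HIF control acts largely on the protein, which arrays do not measure.

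The promoters of 4 members that the results turn on are shown first: HK1 and CA12, with the largest falls on a brightest probe set in si-BAP1 cells, and LOX and P4HA1, with the largest rises there. Each runs 5′ to 3′ on the gene's strand from 250 bases before to 50 bases after the start of the RefSeq transcript, on GRCh38.p14. Capitals mark the core of the hypoxia response element on either strand, for which ACGTG was searched as well as the letters GCGTG. Where ACGTG overlaps itself on both strands, as in the E-box bound by other factors, it counts on both.
HK1 (chr10:69269750-69270049, plus strand): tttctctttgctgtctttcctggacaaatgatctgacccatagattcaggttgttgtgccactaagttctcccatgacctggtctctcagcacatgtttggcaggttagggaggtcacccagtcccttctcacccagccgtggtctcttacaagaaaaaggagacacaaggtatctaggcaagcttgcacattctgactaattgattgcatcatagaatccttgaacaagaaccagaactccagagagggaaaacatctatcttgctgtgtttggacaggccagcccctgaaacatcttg
CA12 (chr15:63381797-63382096, minus strand): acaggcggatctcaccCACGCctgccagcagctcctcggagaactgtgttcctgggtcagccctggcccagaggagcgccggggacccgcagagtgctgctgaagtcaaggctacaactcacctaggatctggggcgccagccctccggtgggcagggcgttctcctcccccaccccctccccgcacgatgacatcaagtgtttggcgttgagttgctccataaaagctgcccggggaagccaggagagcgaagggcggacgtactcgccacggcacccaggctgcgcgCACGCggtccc
LOX (chr5:122078210-122078509, minus strand): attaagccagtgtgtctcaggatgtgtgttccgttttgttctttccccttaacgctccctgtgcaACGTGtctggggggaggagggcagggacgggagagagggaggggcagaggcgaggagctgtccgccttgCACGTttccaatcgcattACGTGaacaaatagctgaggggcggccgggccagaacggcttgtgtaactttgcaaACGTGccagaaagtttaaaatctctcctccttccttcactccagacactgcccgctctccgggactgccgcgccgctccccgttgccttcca
P4HA1 (chr10:73096817-73097116, minus strand): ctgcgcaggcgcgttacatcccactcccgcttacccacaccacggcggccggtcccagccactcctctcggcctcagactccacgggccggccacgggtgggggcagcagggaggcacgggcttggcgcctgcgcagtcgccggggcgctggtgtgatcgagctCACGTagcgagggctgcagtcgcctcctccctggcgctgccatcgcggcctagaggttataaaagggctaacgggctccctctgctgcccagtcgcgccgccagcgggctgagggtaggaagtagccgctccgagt
The HK1 window held 0 cores, the CA12 window 2, the LOX window 4 and the P4HA1 window 1. Only 1 window was read per gene, and which start these cells use was not tested. Among the 36 members on the arrays with a RefSeq promoter, 27 (75%) held at least 1 core, against 61.6% of the 10128 promoters of genes tested and 48.4% of all 27305 promoters in the table. The ACGTG form occurred in 15 of 36 members (41.7%) and in 25.9% of promoters of genes tested. A core was present in 12 of 15 members called against si-Control in either knockdown and in 15 of 20 members called in neither. A match in this window is a description of the sequence and does not show binding.

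In all, 15 members changed in si-BAP1 cells and 10 in si-MBD5 cells, and on the brightest probe sets no called change reached a log2 fold change of 0.5 in size with the constant of 16 used here (HK1 in si-BAP1 cells, -0.498). In si-BAP1 cells 10 members fell and 5 rose, which is 15 of 38 (39.5%), against 23.5% of all 12431 genes tested. In si-MBD5 cells 5 fell and 5 rose, 10 of 38 (26.3%), against 16.3% of all genes. Called means a Benjamini-Hochberg adjusted p under 0.05 over all genes tested, from a limma fit of log2(intensity + 16) on each gene's brightest probe set. Among all genes, 12.4% were called higher and 11.1% lower in si-BAP1 cells, and 7.3% higher and 8.99% lower in si-MBD5 cells. The members were chosen with earlier results of these data known, and the part of that choice in their shares was not tested.

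The median log2 fold change of the 38 members was -0.056 in si-BAP1 cells and -0.033 in si-MBD5 cells, against medians close to 0 over all genes (0.00048 and 0.000095). The members were read with a smaller error than most genes: their median standard error was 0.042, against 0.051 over all genes, and 86.8% of them lay below that all-gene median, which makes a call easier for them. For 24 of 38 members (63.2%) the 3 si-BAP1 arrays lay wholly on one side of the 3 si-Control arrays, against 37.5% of all genes; for si-MBD5 this was so for 16 members, against 30.4% of all genes, and between the knockdowns for 13, against 25% of all genes. Both comparisons use the same 3 si-Control arrays, so calls in both are not independent of each other. Less RNA per cell and fewer cells with the transcript cannot be told apart in these bulk samples.

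**Figure D1:**
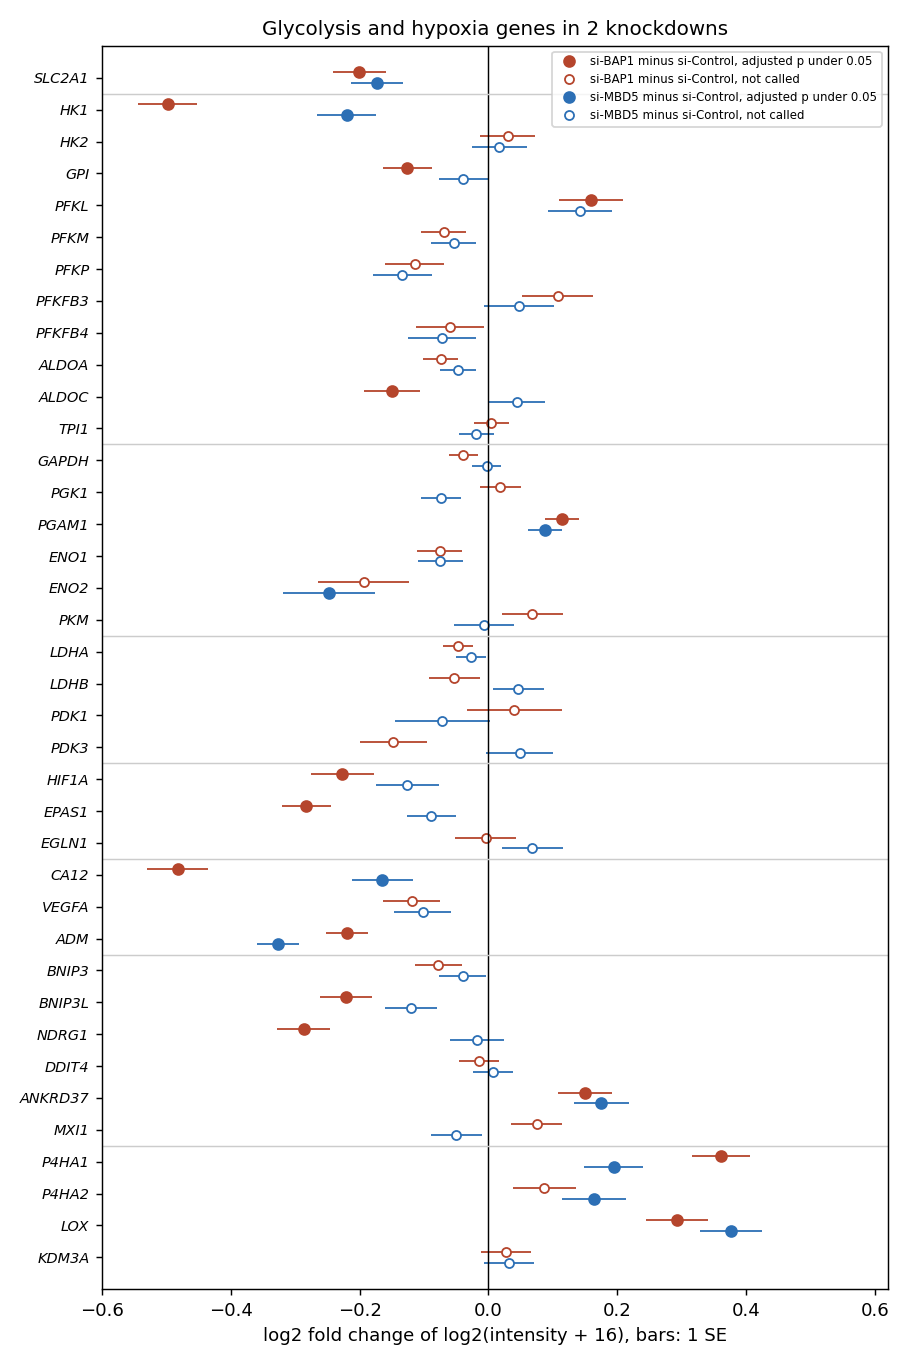
Log2 fold change of log2(intensity + 16), with bars of 1 standard error, of each of the 38 members on its brightest probe set, in si-BAP1 cells (red) and si-MBD5 cells (blue) against si-Control cells (n = 3 arrays each). Filled points passed a limma adjusted p of 0.05, and grey lines part the functional groups. HK1 and CA12 lie furthest to the left in si-BAP1 cells, and P4HA1 and LOX furthest to the right.

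SLC2A1 (GLUT1), the widespread glucose carrier of the plasma membrane, was the only transporter with a value, and it fell in both knockdowns. Its intensity was 367, 367 and 362 in si-BAP1 cells and 356, 382 and 381 in si-MBD5 cells, against 437, 409 and 422 in si-Control cells. All knockdown arrays lay below all control arrays. The log2 fold change was -0.20 ± 0.041 (SE; limma adjusted p = 0.00275) in si-BAP1 cells and -0.17 ± 0.041 (adjusted p = 0.011) in si-MBD5 cells. Both calls rest on 1 probe set of a kind that may read related transcripts (its name ends in _s_at). The other probe sets of SLC2A1 gave -0.12 and -0.087 in si-BAP1 cells and -0.10 and -0.12 in si-MBD5 cells, none of them called. Without si-Control replicate 1 the si-MBD5 call was lost (adjusted p = 0.0514).

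In upper glycolysis, 3 of 11 members fell and 1 rose in si-BAP1 cells, where 11.1% of all genes fell and 12.4% rose, and 1 fell in si-MBD5 cells, where 8.99% of all genes did. Of the 4 calls in si-BAP1 cells, HK1 alone was kept whichever array was left out. HK1, the constitutive hexokinase that traps glucose in the cell, fell in both knockdowns. It read 343, 317 and 339.7 in si-BAP1 cells and 393, 414 and 414 in si-MBD5 cells, against 488, 490.5 and 452 in si-Control cells. The 3 groups did not overlap, with si-BAP1 lowest and si-Control highest. HK1 was 1.41-fold lower in si-BAP1 cells on the log2(intensity + 16) scale (log2 fold change -0.50 ± 0.046, adjusted p = 4.5e-06) and 1.17-fold lower in si-MBD5 cells (-0.22 ± 0.046, adjusted p = 0.00494). The si-MBD5 change was lost when the mean of all HK1 probe sets was used (-0.091, adjusted p = 0.113) or when probe sets ending in _x_at or _s_at were left out (-0.022, adjusted p = 0.812). HK2, the inducible hexokinase raised in many tumours, read 158, 157 and 162 in si-BAP1 cells, 158, 158 and 156 in si-MBD5 cells and 148, 158 and 160.1 in si-Control cells. Its groups overlapped, and neither of its log2 fold changes (0.030 and 0.017) was called.

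GPI, which converts glucose 6-phosphate to fructose 6-phosphate, read 1457, 1441 and 1481 in si-BAP1 cells and 1490.5, 1575 and 1589.6 in si-MBD5 cells, against 1675, 1589 and 1522 in si-Control cells. Only the si-BAP1 difference passed (-0.13 ± 0.038, adjusted p = 0.0281; si-MBD5 -0.039, adjusted p = 0.559). It was lost without any one of si-BAP1 replicates 1 to 3 or si-Control replicates 1 and 2, with adjusted p values of 0.0538 to 0.13. A replicate block or no intensity trend in the fit also lost it (adjusted p = 0.0569 and 0.0655). ALDOC, the aldolase isoform abundant in brain, read 193, 195 and 195 in si-BAP1 cells and 213, 226 and 235 in si-MBD5 cells, against 222, 219 and 211 in si-Control cells. It fell in si-BAP1 cells only (-0.15 ± 0.044, adjusted p = 0.0233; si-MBD5 0.044, adjusted p = 0.569), and its other 4 probe sets were not called. This call was also lost without any one si-BAP1 replicate or without si-Control replicate 1 or 2 (adjusted p 0.0522 to 0.0824). On the mean of all ALDOC probe sets, or without those ending in _x_at or _s_at, it was lost too (adjusted p = 0.0946 and 0.547).

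PFKL is the liver-type subunit of phosphofructokinase, the main control point of the pathway. It read 119, 118 and 117 in si-BAP1 cells and 113, 115 and 121 in si-MBD5 cells, against 113, 100.4 and 99.1 in si-Control cells. It rose in si-BAP1 cells (0.16 ± 0.050, adjusted p = 0.0338), and its si-MBD5 change was 0.14 (adjusted p = 0.0737). The si-BAP1 call was lost without any one si-BAP1 replicate or without si-Control replicate 2 or 3 (adjusted p 0.0744 to 0.136), and without si-Control replicate 1 the si-MBD5 difference passed (0.19, adjusted p = 0.0182). Quantile normalization, no filter or leaving out probe sets ending in _x_at or _s_at also lost the si-BAP1 call (adjusted p 0.0619 to 0.189). The platelet-type subunit PFKP had lower values without a call: 354, 365 and 352 in si-BAP1 cells and 335, 357 and 364 in si-MBD5 cells, against 397, 401 and 365 in si-Control cells (-0.11 and -0.13, adjusted p = 0.0943 and 0.0663). Without si-Control replicate 3, the lowest of its group, PFKP passed in both (adjusted p = 0.0303 in si-BAP1 and 0.0251 in si-MBD5 cells). The muscle-type subunit PFKM, the bifunctional regulators PFKFB3 and PFKFB4, the main aldolase ALDOA and triose phosphate isomerase TPI1 were called in neither, with log2 fold changes between -0.074 and 0.11. ALDOA passed in si-BAP1 cells without si-BAP1 replicate 3 (adjusted p = 0.0479).

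In lower glycolysis, PGAM1, the phosphoglycerate mutase of most tissues, rose by small amounts in both knockdowns. It read 4952, 4995 and 4965 in si-BAP1 cells and 4935, 4904 and 4797 in si-MBD5 cells, against 4466, 4549 and 4761 in si-Control cells. All knockdown arrays lay above all control arrays. The log2 fold change was 0.11 ± 0.026 in si-BAP1 cells (adjusted p = 0.00576) and 0.087 ± 0.026 in si-MBD5 cells (adjusted p = 0.0367). The si-MBD5 call was lost without si-Control replicate 1 or 2 or without si-MBD5 replicate 1 or 2 (adjusted p 0.0818 to 0.137), and the si-BAP1 call with no intensity trend in the fit (adjusted p = 0.0501). No filter, a replicate block, no intensity trend or only the 2 groups compared also lost the si-MBD5 call (adjusted p 0.075 to 0.159). ENO2, the neuron-type enolase that is also a HIF target, read 74.9, 68.8 and 73.6 in si-BAP1 cells and 75.9, 68.7 and 63.4 in si-MBD5 cells, against 94.1, 87.1 and 75.04 in si-Control cells. Its control arrays were widely spread, and it fell in si-MBD5 cells (-0.25 ± 0.071, adjusted p = 0.0292) with -0.19 in si-BAP1 cells (adjusted p = 0.065). The si-MBD5 call was lost without si-Control replicate 1 or 2 or si-MBD5 replicate 2 or 3 (adjusted p 0.0616 to 0.124). Without si-Control replicate 3 the si-BAP1 difference passed (-0.27, adjusted p = 0.0122), as it did with a replicate block (adjusted p = 0.0263). No filter or only the 2 groups compared also lost the si-MBD5 call (adjusted p = 0.0534 and 0.0597).

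The remaining lower-glycolysis genes stayed within narrow ranges. GAPDH read 8150.4, 7999 and 8219.7 in si-BAP1 cells and 8259.7, 8209.7 and 8522 in si-MBD5 cells, against 8495, 8345 and 8201 in si-Control cells, and its groups overlapped (-0.039 and -0.0029). ENO1, the main enolase, had log2 fold changes of -0.075 and -0.075. PKM, which makes pyruvate, had 0.068 and -0.0069, and PGK1, the first ATP-yielding step, had 0.018 and -0.074; none of these was called on the brightest probe set.

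At the branch between lactate and mitochondria, 0 of 4 members was called against si-Control in either knockdown, where 23.5% and 16.3% of all genes were; at an unadjusted limma p under 0.05 there was 1 in si-BAP1 cells (PDK3) and 0 in si-MBD5 cells. LDHA, the HIF-driven lactate dehydrogenase subunit, read 5881, 5864 and 5998 in si-BAP1 cells and 6063, 5892 and 6047 in si-MBD5 cells, against 6016, 6063 and 6258 in si-Control cells (-0.047 ± 0.023 and -0.026 ± 0.023, adjusted p = 0.177 and 0.509). LDHB, the subunit favoured in oxidative tissues, had log2 fold changes of -0.053 and 0.046. PDK1 and PDK3 are kinases that switch off pyruvate dehydrogenase; PDK1 had 0.040 and -0.072, and PDK3 had -0.15 (adjusted p = 0.0556) and 0.049. The si-BAP1 difference of PDK3 passed with quantile normalization, no intensity trend or only the 2 groups compared (adjusted p 0.0321 to 0.0414). PDK3 has only 1 probe set above the filter, so averaging within genes left its log2 fold change at -0.15. Its adjusted p was then 0.034, which is not a reading from further PDK3 probe sets.

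Both HIF alpha transcripts fell in si-BAP1 cells. HIF1A read 1626, 1642 and 1667 in si-BAP1 cells and 1842, 1839.8 and 1623 in si-MBD5 cells, against 1822, 1939.9 and 2027 in si-Control cells. All si-BAP1 arrays lay below the control arrays, while the si-MBD5 arrays overlapped them. The log2 fold change was -0.23 ± 0.049 in si-BAP1 cells (adjusted p = 0.00383) and -0.13 ± 0.049 in si-MBD5 cells (adjusted p = 0.103). EPAS1 read 946, 1054 and 1009.9 in si-BAP1 cells and 1151, 1138 and 1159 in si-MBD5 cells, against 1233, 1235 and 1201 in si-Control cells. It fell by 0.28 on the log2 scale in si-BAP1 cells (SE 0.038, adjusted p = 1.2e-04) and its si-MBD5 change was -0.088 (adjusted p = 0.146). A dimmer EPAS1 probe set gave 0.012 in si-BAP1 cells, and the mean of both was not called (-0.14, adjusted p = 0.0623). EGLN1 (PHD2), the main oxygen sensor that hydroxylates HIF alpha, read 499, 542 and 545 in si-BAP1 cells and 569.6, 581 and 520.2 in si-MBD5 cells, against 527, 523 and 539.8 in si-Control cells, with overlapping groups (-0.0045 and 0.068).

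Among pH regulators and secreted factors, CA12 and ADM fell in both knockdowns. CA12, a membrane carbonic anhydrase that handles acid outside the cell, read 51.3, 55.0 and 55.0 in si-BAP1 cells and 67.2, 72.3 and 73.5 in si-MBD5 cells, against 82.0, 82.4 and 80.02 in si-Control cells. As for HK1, the 3 groups did not overlap, with si-BAP1 lowest. HK1 and CA12 fell by like amounts in si-BAP1 cells, and which fell more depended on the constant added before log2: with a constant of 1 CA12 had -0.59 and HK1 -0.52, and with 64 CA12 had -0.30 and HK1 -0.45. The log2 fold change was -0.48 ± 0.047 in si-BAP1 cells (1.40-fold lower, adjusted p = 7.6e-06) and -0.16 ± 0.047 in si-MBD5 cells (adjusted p = 0.0293). The si-MBD5 call was lost without any one si-Control replicate or without si-MBD5 replicate 1 (adjusted p 0.0551 to 0.112). No filter or the mean of all CA12 probe sets also lost it (adjusted p = 0.0636 and 0.0561).

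ADM (adrenomedullin), a secreted vasodilator peptide induced by low oxygen, read 1423, 1488 and 1459.8 in si-BAP1 cells and 1345, 1401 and 1310.1 in si-MBD5 cells, against 1698, 1686 and 1713 in si-Control cells. Every knockdown array was below every control array. It was 1.16-fold lower in si-BAP1 cells (-0.22 ± 0.032, adjusted p = 2.3e-04) and 1.25-fold lower in si-MBD5 cells (-0.33 ± 0.032, adjusted p = 2.5e-05). VEGFA, the angiogenic growth factor, read 638, 701 and 670.2 in si-BAP1 cells and 706, 656 and 672 in si-MBD5 cells, against 731, 701 and 754 in si-Control cells. Its groups overlapped, and its changes of -0.12 and -0.10 were not called (adjusted p = 0.0692 and 0.145). Without si-BAP1 replicate 2 the si-BAP1 difference passed (-0.15, adjusted p = 0.0379). The 9 VEGFA probe sets above the filter gave -0.12 to 0.14 in both knockdowns, and 0 were called. Of these, 5 were above 0 in si-BAP1 cells and 6 in si-MBD5 cells.

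Of the mitophagy, stress and growth-restraint genes, BNIP3L and NDRG1 fell in si-BAP1 cells, and ANKRD37 rose in both. BNIP3L (NIX), a mitophagy receptor of the outer mitochondrial membrane, read 588, 622 and 557 in si-BAP1 cells and 628, 627 and 641 in si-MBD5 cells, against 696, 680.4 and 689 in si-Control cells. All knockdown arrays were below all control arrays, with -0.22 ± 0.040 in si-BAP1 cells (adjusted p = 0.00123) and -0.12 ± 0.040 in si-MBD5 cells (adjusted p = 0.0603). The si-MBD5 difference passed when all BNIP3L probe sets were averaged (-0.16, adjusted p = 0.0129) and with only the 2 groups compared (adjusted p = 0.0442). NDRG1, a stress-responsive gene induced by hypoxia, read 280.1, 295 and 279 in si-BAP1 cells and 332, 349.7 and 358 in si-MBD5 cells, against 355, 344 and 353 in si-Control cells. The si-BAP1 arrays stood apart from both other groups, which overlapped (si-BAP1 -0.29 ± 0.041, adjusted p = 1.9e-04; si-MBD5 -0.018, adjusted p = 0.831). The mean of all NDRG1 probe sets was not called (-0.095, adjusted p = 0.0723).

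ANKRD37, an ankyrin-repeat protein and HIF target, read 99.9, 99.9 and 104 in si-BAP1 cells and 100.04, 104 and 105 in si-MBD5 cells, against 89.5, 91.7 and 87.5 in si-Control cells. It rose by 0.15 ± 0.043 in si-BAP1 cells (adjusted p = 0.02) and 0.18 ± 0.043 in si-MBD5 cells (adjusted p = 0.0126). The si-BAP1 call was lost without si-BAP1 replicate 3 (adjusted p = 0.0816) or si-Control replicate 3 (adjusted p = 0.0687). BNIP3, the close relative of BNIP3L, had log2 fold changes of -0.078 and -0.040. DDIT4 (REDD1), an inhibitor of mTORC1, had -0.015 and 0.0074, and MXI1, a MYC antagonist, had 0.075 and -0.050, none of them called.

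The collagen and chromatin dioxygenases and lysyl oxidase held no member that fell: 2 of 4 rose in si-BAP1 cells and 3 of 4 in si-MBD5 cells, where 12.4% and 7.3% of all genes rose. P4HA1, the catalytic subunit of collagen prolyl 4-hydroxylase, read 462, 511 and 485 in si-BAP1 cells and 434, 443 and 416 in si-MBD5 cells, against 360.1, 377 and 388 in si-Control cells. The 3 groups did not overlap, with si-BAP1 highest and si-Control lowest. It rose 1.28-fold in si-BAP1 cells (0.36 ± 0.046, adjusted p = 6.6e-05) and 1.14-fold in si-MBD5 cells (0.19 ± 0.046, adjusted p = 0.0104). P4HA1 has only 1 probe set above the filter, and its name ends in _s_at. It therefore had no value when probe sets ending in _x_at or _s_at were left out.

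LOX, the lysyl oxidase that cross-links collagen and elastin outside the cell, read 211, 235 and 211 in si-BAP1 cells and 232, 227 and 238 in si-MBD5 cells, against 178, 169.5 and 179 in si-Control cells. All knockdown arrays lay above the control arrays, with 1.23-fold in si-BAP1 cells (0.29 ± 0.048, adjusted p = 5.2e-04) and 1.30-fold in si-MBD5 cells (0.38 ± 0.048, adjusted p = 1.8e-04). P4HA2, a second collagen prolyl hydroxylase subunit, read 210.4, 209.6 and 202 in si-BAP1 cells and 204, 232 and 224 in si-MBD5 cells, against 196, 199.5 and 188 in si-Control cells. Only its si-MBD5 difference passed (0.16 ± 0.049, adjusted p = 0.0367; si-BAP1 0.087, adjusted p = 0.249). That call was lost without any one si-Control replicate or without si-MBD5 replicate 2 or 3 (adjusted p 0.0703 to 0.121). No filter or only the 2 groups compared also lost it (adjusted p = 0.0525 and 0.0705). The histone demethylase KDM3A, an oxygen-dependent enzyme and HIF target, read 289 to 309.7 over all 9 arrays and was not called (0.028 and 0.033).

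**Figure D2:**
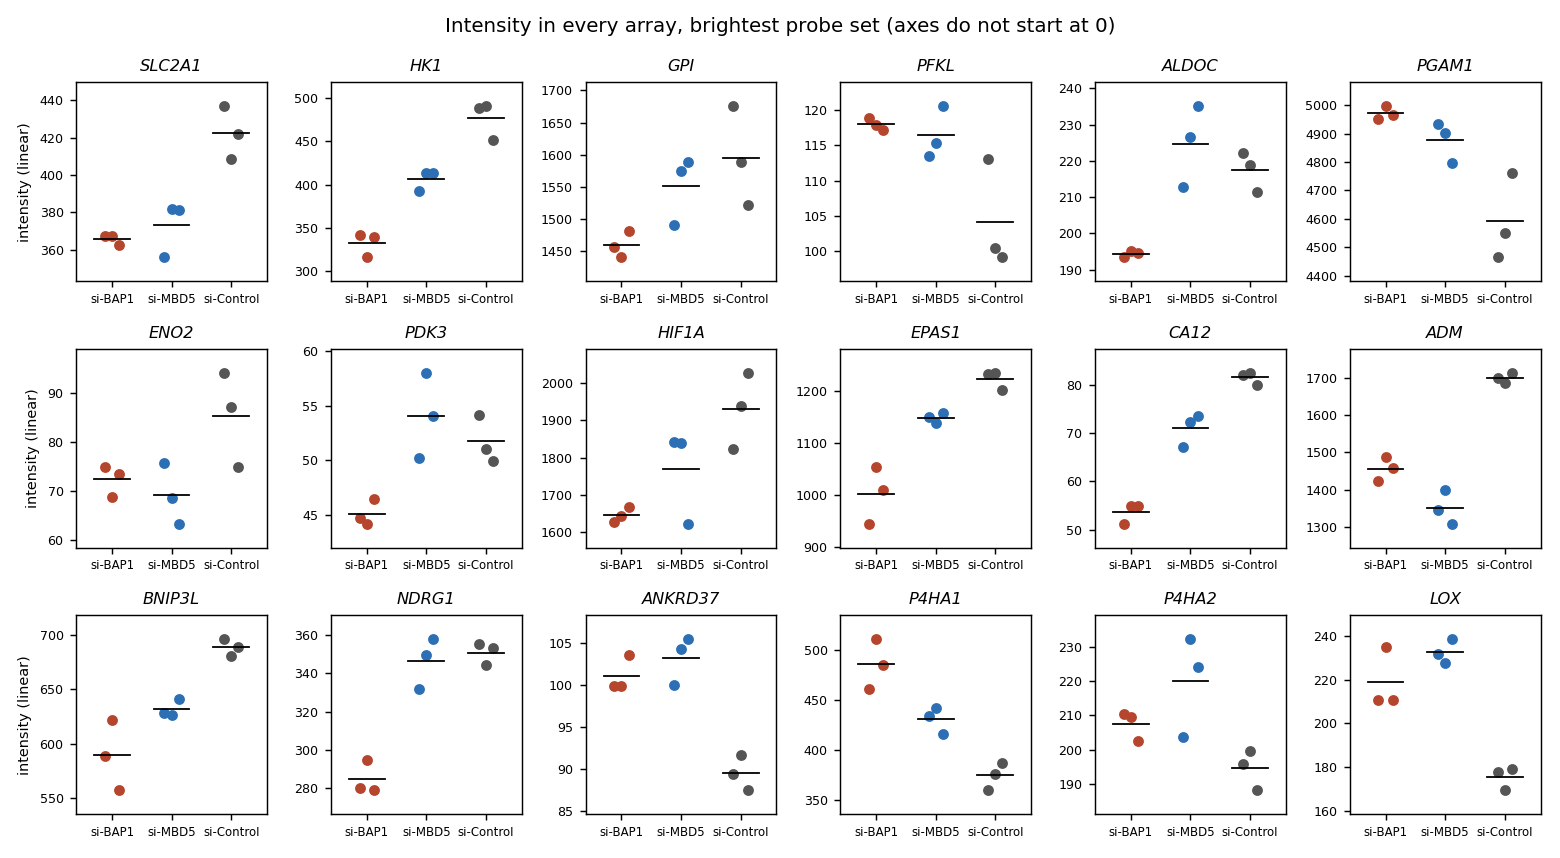
Linear intensity in each array (points) with the group mean (line) for the 18 members called in at least 1 comparison, brightest probe set, with si-BAP1 (red), si-MBD5 (blue) and si-Control (grey) from left to right and axes that do not start at 0. The 3 groups do not overlap in HK1, CA12, EPAS1, ADM, BNIP3L, P4HA1 and PGAM1. In NDRG1, ALDOC, GPI and PDK3 the si-BAP1 arrays alone stand apart. The members shown were picked by their calls on these same values, and the share of all genes with such patterns was not computed.

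Set directly against each other, the knockdowns differed for 7 of 38 members (18.4%), against 9.98% of all genes, with 1 member higher and 6 lower in si-BAP1 cells (5.76% and 4.22% of all genes). With quantile normalization the calls over all genes were split 608 higher to 715 lower in place of 716 to 524, and 2 members were higher and 7 lower. Of these, 6 were lower in si-BAP1 than in si-MBD5 cells: CA12 (-0.32 ± 0.047, adjusted p = 7.6e-04), HK1 (-0.28 ± 0.046, adjusted p = 0.00164), NDRG1 (-0.27 ± 0.041, adjusted p = 0.00102), PDK3, EPAS1 and ALDOC. PDK3 read 44.7, 44.2 and 46.4 in si-BAP1 cells, against 50.2, 58.0 and 54.0 in si-MBD5 cells, without overlap (-0.20 ± 0.052, adjusted p = 0.0289). EPAS1 and ALDOC each differed by -0.19 (adjusted p = 0.0059 and 0.0129). The calls for CA12 and HK1 were kept under every alternative that gave them a value. On the mean of all probe sets the NDRG1, EPAS1 and ALDOC differences were not called (adjusted p = 0.105, 0.0955 and 0.0773).

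P4HA1 was the 1 member higher in si-BAP1 than in si-MBD5 cells (0.17 ± 0.046, adjusted p = 0.0347). That call was lost without si-BAP1 replicate 2 or 3 or si-MBD5 replicate 1 or 3 (adjusted p 0.089 to 0.144). No intensity trend or only the 2 groups compared also lost it (adjusted p = 0.0503 and 0.0594). The PDK3 call was lost without any one si-BAP1 replicate or si-MBD5 replicate 2 or 3 (adjusted p 0.0639 to 0.0917). No filter or only the 2 groups compared also lost it (adjusted p = 0.0567 and 0.0548). For the members that passed in one knockdown only, on the brightest probe set, and are not among these 7 (GPI, PFKL, HIF1A, BNIP3L, P4HA2 and ENO2), the difference between knockdowns did not pass, with adjusted p values from 0.149 for BNIP3L to 0.883 for PFKL. Uncalled differences that passed without si-MBD5 replicate 3 were those of HIF1A (-0.16, adjusted p = 0.0216) and MXI1 (0.15, adjusted p = 0.0328), and that of PGK1 (0.12, adjusted p = 0.0373). ADM (0.11, adjusted p = 0.0548) passed without si-MBD5 replicate 2 (0.13, adjusted p = 0.0265).

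Most members have several probe sets, and these did not always read alike. Over the 113 member probe sets above the filter, 38 (33.6%) were called in si-BAP1 cells, 14 higher and 24 lower, against 20.2% of all probe sets; 21 (18.6%) were called in si-MBD5 cells, 9 higher and 12 lower, against 12.6%. For the difference between knockdowns 12 (10.6%) were called, against 7.7%. Probe sets of 1 gene share sequence and are not independent readings, and 2 BNIP3L probe sets held identical values in every array. In none of the 3 comparisons did a member have probe sets called in opposite directions.

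All 4 HK1 probe sets were called lower in si-BAP1 cells, from -0.50 to -0.25, whereas in si-MBD5 cells the brightest alone was called. All 4 PGAM1 probe sets were called higher in si-BAP1 cells and 3 of 4 in si-MBD5 cells. BNIP3L had 5 of 6 called lower in si-BAP1 cells and 2 of 6 in si-MBD5 cells, CA12 had 3 of 4 and 2 of 4, HIF1A had 4 of 7 and 1 of 7, and ADM had 2 of 3 and 3 of 3.

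LOX split in 2: 3 of its 6 probe sets rose in both knockdowns, by 0.29, 0.47 and 0.52 in si-BAP1 cells and 0.38, 0.40 and 0.37 in si-MBD5 cells, and the other 3 were called in neither. PGK1 showed a like split in si-BAP1 cells, where 3 of 9 probe sets rose (0.20, 0.22 and 0.18) while its brightest did not (0.018); in si-MBD5 cells 1 of 9 fell (-0.15). ALDOA had 1 dimmer probe set called lower in si-BAP1 cells (-0.11, adjusted p = 0.0289). For ALDOC, EPAS1, NDRG1 and SLC2A1 no probe set other than the brightest was called in si-BAP1 cells.

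**Figure D3:**
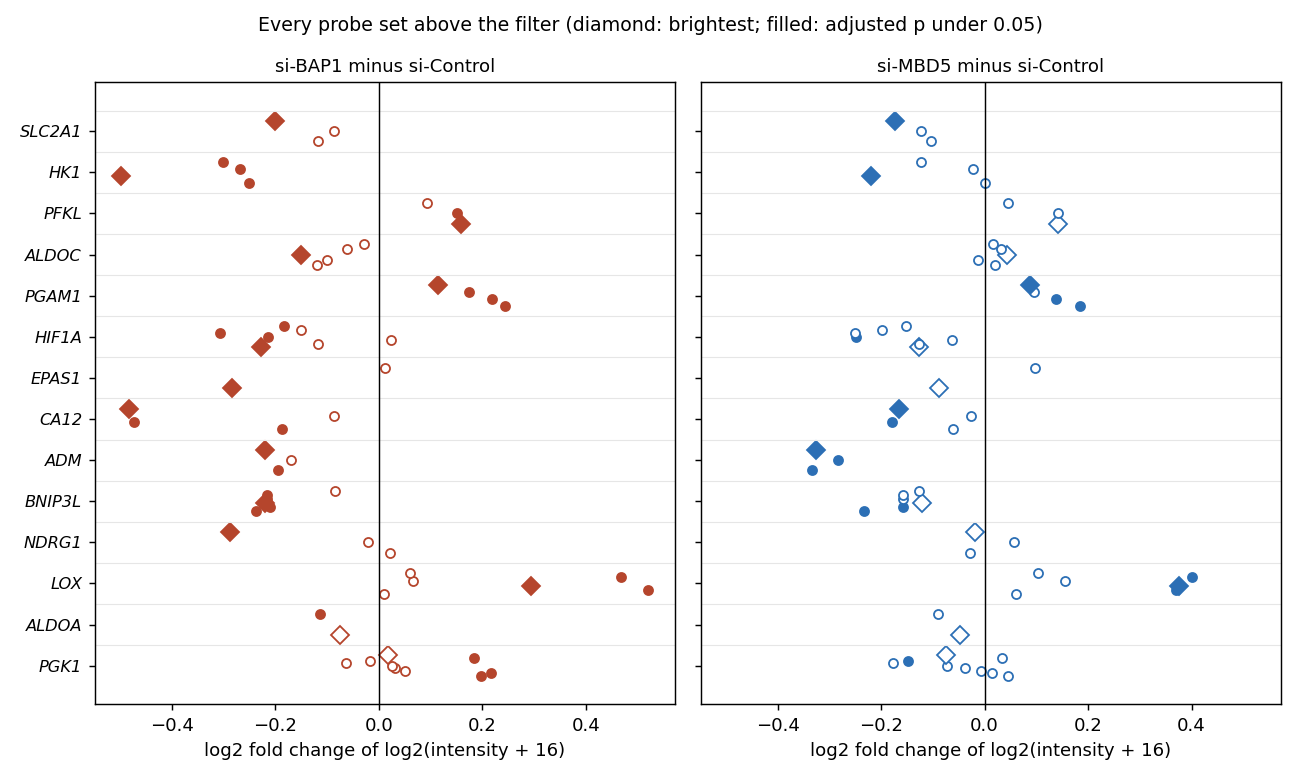
Log2 fold change of every probe set above the filter for 14 members with several probe sets, in si-BAP1 cells (left panel) and si-MBD5 cells (right panel) against si-Control cells. Diamonds are the brightest probe set of each gene, used for the gene's value, and filled symbols passed a limma adjusted p of 0.05. HK1 is filled throughout in si-BAP1 cells, and LOX shows 3 filled and 3 open symbols in both panels.

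Genes around these members were read in 5 further lists of 135 genes, 115 of them tested. In si-BAP1 cells 15 rose and 23 fell (33.0%, against 23.5% of all genes), and in si-MBD5 cells 12 rose and 17 fell (25.2%, against 16.3%). Medians were near 0 (-0.022 and -0.018). These lists too were chosen with earlier results of these data known, so their shares carry the same limit as those of the members. The other enzymes of glycolysis and gluconeogenesis had 3 of 19 lower and 0 higher in si-BAP1 cells (15.8% called, against 23.5%), and 1 higher and 1 lower in si-MBD5 cells (10.53%, against 16.3%). TIGAR, which lowers the phosphofructokinase activator fructose 2,6-bisphosphate, fell in both: 159 ± 15.5 in si-BAP1 cells and 156 ± 9.62 in si-MBD5 cells, against 215 ± 13.5 in si-Control cells (SD, n = 3 each; -0.41 and -0.43, adjusted p = 4.7e-04 and 6.8e-04). GPD1L, a glycerol 3-phosphate dehydrogenase-like protein, fell in si-BAP1 cells to 126 ± 8.68, against 178 ± 8.24 in si-Control cells (-0.45), and it was also below si-MBD5 cells (187 ± 13.1; -0.51, adjusted p = 9.9e-05). PGM2, a phosphoglucomutase, fell in si-BAP1 cells (-0.26) and was lower there than in si-MBD5 cells (-0.18, adjusted p = 0.0121). PCK2, the mitochondrial PEP carboxykinase, rose in si-MBD5 cells (0.16).

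Of 16 genes of pyruvate dehydrogenase and lactate handling, 3 fell in si-BAP1 cells (18.8%, against 23.5% of all genes called): PDHX, DLAT and DLD (-0.46, -0.29 and -0.12), each a component of the pyruvate dehydrogenase complex. In si-MBD5 cells 3 fell and 1 rose (25%, against 16.3%). PDHX, the protein that binds the E3 component to the complex core, read 746 ± 17.6 in si-BAP1 cells and 880.1 ± 66.6 in si-MBD5 cells, against 1030.0 ± 32.3 in si-Control cells (adjusted p = 1.7e-05 and 0.00651), and the knockdowns differed (-0.23, adjusted p = 0.00884). PDK4, a pyruvate dehydrogenase kinase, fell in si-MBD5 cells (-0.29), and the testis-type lactate dehydrogenase LDHC rose there (0.18). Between the knockdowns 3 of the 16 were lower and 1 higher in si-BAP1 cells (25%, against 9.98% of all genes). LDHD and LDHC were among the lower ones (-0.22 and -0.17, adjusted p = 0.0409 and 0.0416).

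Of 19 HIF partners and regulators, 3 rose and 2 fell in si-BAP1 cells (26.3%, against 23.5% of all genes called), and 1 rose and 3 fell in si-MBD5 cells (21.1%, against 16.3%). SIAH2, a ubiquitin ligase that targets the HIF prolyl hydroxylases, rose in both: 553 ± 3.12 in si-BAP1 cells and 529.7 ± 6.78 in si-MBD5 cells, against 418 ± 17.8 in si-Control cells (0.39 and 0.33, adjusted p = 7.3e-06 and 8.0e-05). CITED2, which competes with HIF alpha for the coactivators p300 and CBP, rose in si-BAP1 cells to 349.7 ± 29.1, against 269.9 ± 15.1 in si-Control cells (0.35), and it was higher than in si-MBD5 cells (0.21, adjusted p = 0.0303). RORA, a nuclear receptor, fell in si-BAP1 cells (-0.27). ELOC (elongin C, a part of the VHL ubiquitin ligase) and SIAH1 fell in si-MBD5 cells (-0.23 and -0.21). SIAH1 was also higher in si-BAP1 than in si-MBD5 cells (0.22, adjusted p = 0.0329).

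The 44 other hypoxia-induced genes moved in both directions: 9 rose and 11 fell in si-BAP1 cells (45.5%, against 23.5%), and 7 rose and 6 fell in si-MBD5 cells (29.5%, against 16.3%). CAV1, the main caveolin, read 856 ± 39.9 in si-BAP1 cells and 768 ± 15.97 in si-MBD5 cells, against 584 ± 12.5 in si-Control cells (0.54 and 0.39, adjusted p = 6.8e-07 and 3.0e-05). IGFBP3, a secreted binder of insulin-like growth factors, rose with 0.48 and 0.36. ZNF395 fell in si-BAP1 cells (-0.46), and TMEM45A rose in si-MBD5 cells (0.26). VLDLR, a lipoprotein receptor, was lower in si-BAP1 than in si-MBD5 cells (66.0 ± 6.76 against 105 ± 9.54; -0.56, adjusted p = 2.0e-04). RBPJ, the Notch pathway DNA-binding factor, was also lower there (-0.32), and PPP1R3C, a glycogen-targeting phosphatase subunit, was higher (0.26).

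Among 17 genes of glucose sensing and glycolytic transcription, 3 rose and 4 fell in si-BAP1 cells (41.2%, against 23.5%), and 2 rose and 4 fell in si-MBD5 cells (35.3%, against 16.3%). SLC2A6, a glucose transporter family member, fell in si-BAP1 cells to 169 ± 5.06, against 260.0 ± 13.3 in si-Control cells (-0.58, adjusted p = 1.2e-06), and was lower than in si-MBD5 cells (219 ± 4.13; -0.34). ARRDC4, an arrestin-like protein related to the glucose-induced TXNIP, fell in both (-0.34 and -0.41), and SLC2A13, the proton myo-inositol cotransporter, rose in both (0.40 and 0.31). PRKAA2, a catalytic subunit of the energy sensor AMPK, rose in si-MBD5 cells (0.35) and was lower in si-BAP1 than in si-MBD5 cells (-0.21), while the AMPK subunit PRKAB1 was higher in si-BAP1 than in si-MBD5 cells (0.21).

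**Figure D4:**
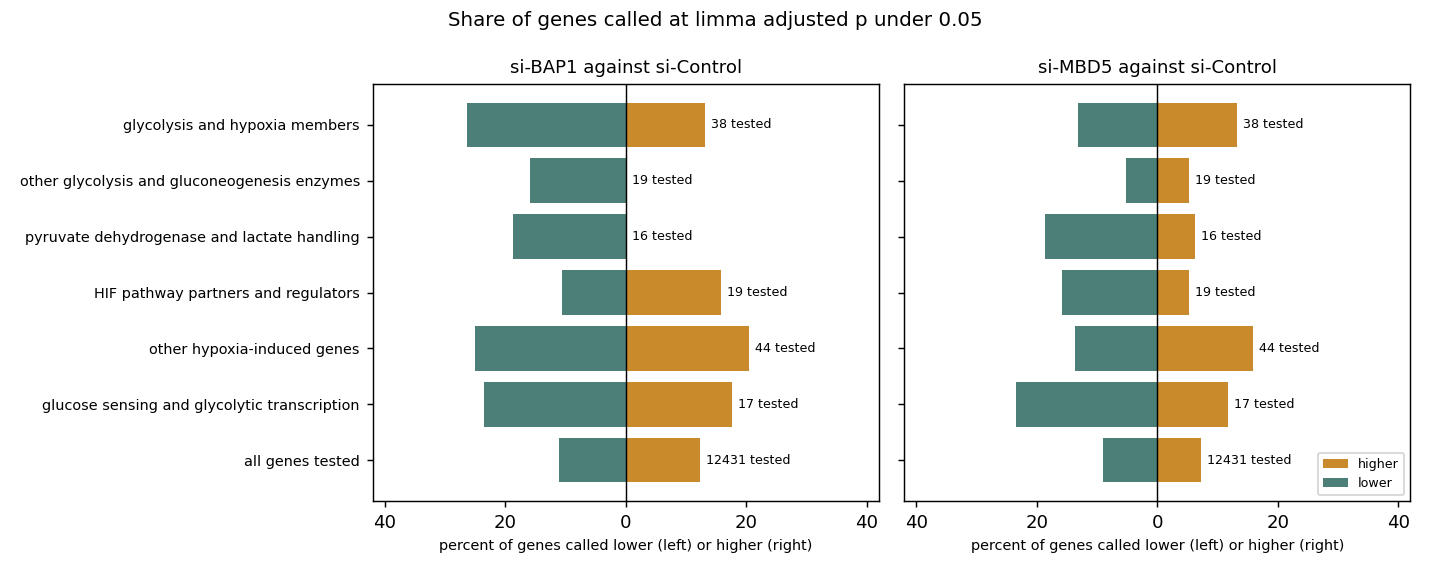
Percent of genes called higher (right) or lower (left) at a limma adjusted p of 0.05 among the 38 members, the 5 neighbouring lists and all 12431 genes tested, in si-BAP1 cells (left panel) and si-MBD5 cells (right panel) against si-Control cells. Among members in si-BAP1 cells the bar for lower (26.3%) is longer than that for higher (13.2%), and over all genes the bars are 11.1% and 12.4%.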

How the data were processed

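The deposited values are linear intensities per probe set and array, computed with MAS5 per the submitters' processing notes (version and scaling not given in the sources used here) from 6 ug total RNA, per the labels' protocols. The arrays give intensities and no counts, and the number of arrays (3 per group) limits the precision. Symbols came from the platform annotation, updated by gene ID through RefSeq; 44988 probe sets had 1 symbol, 1832 several and 2473 none, and 102 were controls. Each gene was read on its brightest single-symbol probe set with a mean above the 40th percentile. log2(intensity + 16) was fitted with limma 3.58.1 in R 4.3.3 (lmFit, eBayes with an intensity trend) on all 9 arrays, for 3 comparisons, with Benjamini-Hochberg adjustment over 12431 genes or 29576 probe sets. The fit was tested on simulated data. Fold changes on this scale understate the change of dim genes. From each of the 5 neighbouring lists, up to 3 genes with the largest change among those called were named in each comparison. Every member is accounted for. The members and lists were chosen with earlier results of these data known. Alternatives were the constant (1 or 64), quantile normalization, the filter (none or the 60th percentile), the mean of a gene's probe sets, no _x_at or _s_at probe sets, a replicate block, no trend, only the 2 groups compared, and leaving out each array.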

Additional observations from a re-analysis of the deposited data

How the results depend on the processing

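Of the 32 calls of members over the 3 comparisons, 13 were kept under every alternative that gave them a value, 19 were lost under at least 1, and 0 changed direction. Those kept were ADM, BNIP3L, CA12, HIF1A, HK1, LOX and P4HA1 for si-BAP1, ADM, ANKRD37, LOX and P4HA1 for si-MBD5, and CA12 and HK1 for the difference between knockdowns. Main counts of called members were 15 (5 higher, 10 lower) for si-BAP1 against si-Control, 10 (5 and 5) for si-MBD5 against si-Control and 7 (1 and 6) for si-BAP1 against si-MBD5. Without probe sets ending in _x_at or _s_at, 27 members remained testable and the counts were 8 (2 higher, 6 lower), 6 (3 and 3) and 4 (0 higher). Over all genes the counts were then 2335, 1551 and 928 of 10826 tested. With no filter the si-MBD5 count was 6 of 39 members (3 higher, 3 lower), against 1795 of 18132 genes (816 higher, 979 lower). For si-BAP1 against si-MBD5 the number higher was 2 with quantile normalization or the 60th percentile filter, 3 (with 3 lower) with the mean of probe sets, and 0 with no intensity trend or with only the 2 groups compared; the last also gave 3 higher for si-MBD5. Over all genes 608, 758 (of 9161 tested), 733, 608 and 530 were higher in these settings, in that order. For si-MBD5 761 were higher in the last. The causes of the changed member counts were not tested, apart from the smaller number of members testable. Leaving out each array gave 12 to 15 called members for si-BAP1 (3 to 5 higher, 8 to 12 lower), 6 to 9 for si-MBD5 (3 to 4 higher, 2 to 5 lower) and 5 to 8 for the difference (0 to 2 higher, 5 to 6 lower). Called member probe sets were then 26 to 32 (38 with all arrays), 13 to 19 (21) and 7 to 13 (12), and called genes 2245 to 2589 (2918), 1267 to 1959 (2026) and 721 to 1326 (1240). Leaving out any one of the 9 arrays moved at least 1 of these counts, or its split into higher and lower, by over 1.5 times. For called genes these were si-Control replicate 2 (1267 for si-MBD5), si-MBD5 replicate 1 (721 for the difference) and si-BAP1 replicate 3 (759 for the difference), with si-BAP1 replicates 1 and 2 moving the split of the difference (339 lower and 372 higher, of 524 and 716). For called members or their probe sets, without si-Control replicate 1 or 2 there were 6 members for si-MBD5, without si-Control replicate 3 or si-BAP1 replicate 3 there were 3 higher for si-BAP1, without si-MBD5 replicate 2 there were 3 higher for si-MBD5, and without si-MBD5 replicate 2 or 3 there were 2 higher for the difference. With the replicate number as a block, 15, 9 and 7 members were called, and 2851, 1866 and 1116 genes. Deviations from group means correlated between same-numbered arrays at 0.34, 0.07 and -0.13 (si-BAP1 and si-Control), -0.03, 0.13 and -0.43 (si-MBD5 and si-Control) and 0.09, 0.48 and -0.07 (si-BAP1 and si-MBD5). Between differently numbered arrays they correlated at -0.56 to 0.47. With 3 arrays per group these values cannot settle whether the numbers pair the arrays. Slide and scan date are not given in the sources used here. Arrays read transcripts, and dim probe sets near the filter limit what can be seen for EGLN3.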
